A study of Mus musculus with 4 samples.

Results

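The comparison described here is the effect of a high-fat diet on liver RNA in male mice that lack catalase, the peroxisomal enzyme that splits hydrogen peroxide into water and oxygen. It sets 1 array of catalase-knockout liver on a high-fat diet against 1 array of catalase-knockout liver on a normal diet, 2 of the 4 arrays of the series, and covers every gene named on the array. The other 2 arrays hold wild-type liver on the same diets and serve here only as a second reading beside it. The normal diet drew 18% of its calories from fat and the high-fat diet 60.3%, and both were fed for 11 weeks, from 29 to 40 weeks of age. The labels call the mutants catalase knockout and name neither the allele nor the strain, and do not give the number of animals behind a sample.

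Catalase works in peroxisomes, where the oxidases that shorten very long fatty acids release hydrogen peroxide as a by-product. In liver, a diet rich in fat is known to load hepatocytes with triglyceride, to activate the fatty acid receptor PPARα and its target genes, and to lower the sterol synthesis that cholesterol in the diet makes unnecessary. With time a fatty liver can draw in monocytes, activate its resident macrophages, the Kupffer cells, and lay down collagen. Gene lists for each of these processes, for the other cell types of liver and for the main hepatocyte functions are described in turn.

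Because each group is 1 array, no difference below has a replicate and none carries a p-value. Levels are scaled signals, in which the 75th percentile of each array is set to 1000, and differences are on the log2 scale, high-fat minus normal diet. The ± after a difference is the scanner's own error for the 2 spots and says nothing about differences between animals. A gene is said to have risen or fallen when it differed at least 2-fold and both of its spots stood well above background, which is called measured. Where it was well above background on 1 array only, its dim signal was raised to the lowest signal well above background on that array, unless its own was higher. It counts when the size found so, called a bound, reached 2-fold. Levels of different genes are not compared, since each probe binds its target with its own strength.

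The 39429 probes of each array gave 23760 to 25184 well above background, with the most on the knockout high-fat array and 23998 on the knockout normal-diet array. The 75th percentile before scaling was 1002 (normal diet) and 1152 (high-fat) in the knockout, and 1006 and 1019 in wild type. No spot was saturated. The labelled tissue was borne out by its markers, since all 29 listed hepatocyte genes were measured. Alb, the plasma carrier albumin, went from 666090.0 to 546741 in the knockout, a difference of -0.28 ± 0.20.

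Cat itself was checked first. Its brighter probe read 29714 and 26999 on the wild-type normal-diet and high-fat arrays, and 2196 and 1928 on the knockout ones. The second probe read 13968, 12704, 778 and 608 in the same order. Both knockout arrays were thus low, by 13.5-fold on the normal diet at the first probe and by 17.9-fold and 20.9-fold on the 2 diets at the second. Which part of the gene was deleted is not given in the sources used here, so the remaining signal is not read further. Within the knockout, diet moved the 2 probes by -0.19 and -0.36, less than 2-fold.

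Of 14905 named genes that were well above background on at least 1 of the 2 knockout arrays, 629 were higher by this rule on the high-fat diet (4.22%) and 245 lower (1.64%). These 2 shares are the background for every count of a gene list below. The lists were chosen with earlier results of these data known, so a count above these shares is a description and not a test. Together the lists held 163 rises and 66 falls among 1397 tested genes. The middle of the distribution lay just under 0, with a median difference of -0.07 over the 13879 measured genes. Of these genes 39.9% lay above 0, which is the background for counts of list members above or below 0. The rises were more numerous than the falls, with 110 rises and 56 falls of at least 4-fold. At 8-fold or more the counts were close, with 16 rises and 14 falls. Bounds, in which 1 array was dim, made up 151 of the rises and 92 of the falls, and 78 and 55 of these were read well above background on just 1 of the 4 arrays. With each array scaled to its median instead, the changed genes split into 510 rises and 323 falls, so that 61.2% of them were rises in place of 72.0%. A total of 241 rises and 113 falls stayed at 2-fold under each of 6 other ways of scaling and reading the arrays.

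The size of the difference also moved with the level of a gene. Measured genes were split by level into 3 equal parts. In the dimmest part the median difference was 0.04, with 275 rises and 62 falls, and in the brightest it was -0.15, with 46 rises and 66 falls. The brightest part holds many hepatocyte genes, so the medians of hepatocyte lists are given below also after cyclic loess normalization, which levels such a trend. Over all measured genes that normalization moved the median by 0.05, and median scaling moved it by -0.11. The part of the higher 75th percentile of the high-fat array in this trend was not tested.

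**Figure D1:**
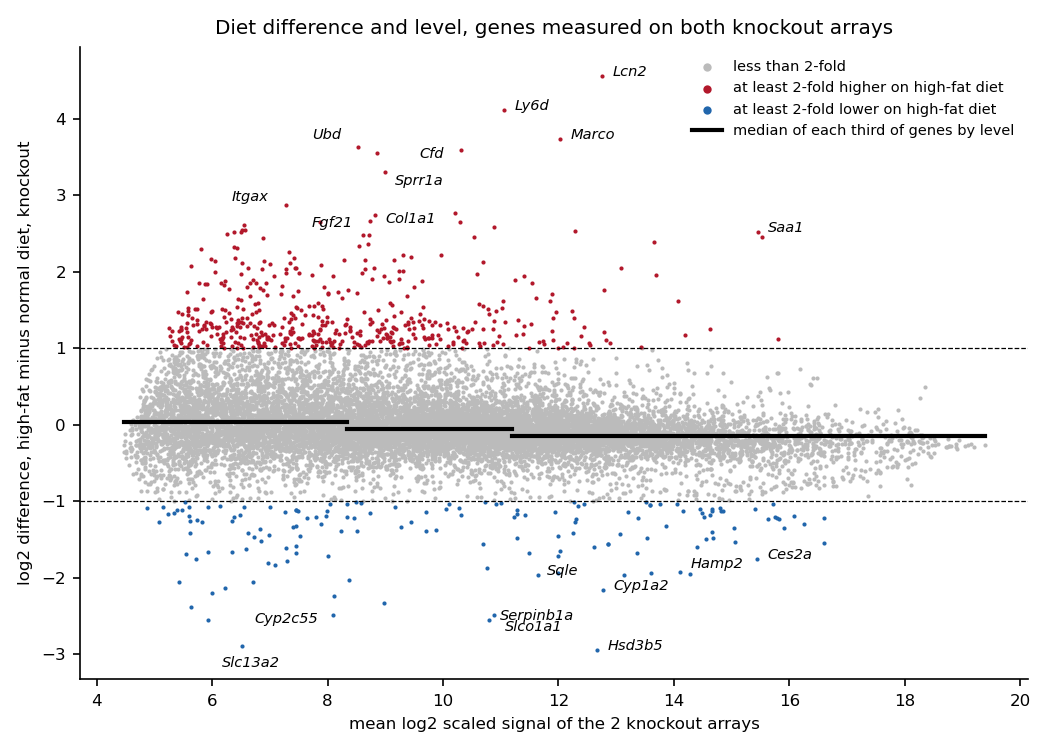
Each point is 1 of 13879 genes measured on both knockout arrays, with the mean log2 scaled signal of the 2 arrays on the horizontal axis and the log2 difference, high-fat minus normal diet, on the vertical axis. Dashed lines mark 2-fold and black bars the medians of 3 equal parts of the genes by level, 0.04, -0.05 and -0.15 from dim to bright; the largest rises (Lcn2, Ly6d, Marco) lie above 3.7 and the largest fall (Hsd3b5) near -2.95.

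Macrophage genes held many of the rises. General macrophage genes numbered 21, of which 14 rose and 0 fell, with a median difference of 1.19 against -0.07 over all measured genes, and 20 of the 21 were above 0. Adgre1, which encodes the surface protein F4/80, read 777 on the normal-diet array and 3059 on the high-fat array, a difference of 1.98 ± 0.20. Cd14, the co-receptor for bacterial lipopolysaccharide, went from 220.4 to 915 (2.05 ± 0.21). Lyz2, a lysozyme, went from 369 to 1182 (1.68 ± 0.21). Each of these stood higher on the knockout high-fat array than on any of the other 3 arrays. The 3 chains of the complement starter C1q rose together, C1qa by 1.38 ± 0.20, C1qb by 1.53 ± 0.20 and C1qc by 1.07 ± 0.07, as did Tyrobp, a signalling adaptor of myeloid receptors, from 2094 to 6457 (1.62 ± 0.20). In bulk liver more macrophages and more RNA per macrophage cannot be told apart.

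The same genes read differently in wild type, where 0 of 21 reached 2-fold and the median diet difference was 0.28. Adgre1 went from 856 to 1114 there (0.38) and Lyz2 from 448 to 470.1 (0.07). Summed over the list, a value that the brightest probes carry, the scaled signal went from 44723 to 87353 in the knockout and from 46861 to 55569 in wild type. The sums of the lipid-associated macrophage and monocyte lists described next were lower on the knockout high-fat array, from 727997 to 692337 and from 401881 to 315539.9. All wild-type values in this account are set beside the knockout's with no test of the difference, since each genotype has 1 array per diet.

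Genes of resident Kupffer cells and of monocytes were both among the rises. Among 15 Kupffer cell genes there were 4 rises and 0 falls (median 0.59). Marco, a scavenger receptor that binds bacteria, had the largest difference among them and read 1144 on the normal-diet and 15319 on the high-fat array, a 13.4-fold rise (3.74 ± 0.20). Its wild-type arrays read 2596 and 2477, so the knockout normal-diet array was the lowest of the 4 and the high-fat array the highest. Cd5l, a secreted protein of tissue macrophages, went from 9862 to 30180.5 (1.61 ± 0.20), and Spic, a transcription factor of iron-recycling macrophages, from 177 to 599 (1.76 ± 0.21). Timd4, a receptor for dying cells carried by long-resident Kupffer cells, went from 208 to 446 (1.10 ± 0.21). Clec4f, a lectin that marks Kupffer cells in mice, differed by 0.59 ± 0.20, below 2-fold. Of the 15 genes 10 were above 0 and 5 were below it, Slc40a1 and Hmox1 among the latter. With median scaling or with normexp 3 of the 15 rose.

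Among 15 monocyte genes 7 rose and 0 fell (median 1.03), and 4 rose with the normexp background correction. Ccr2, the receptor that brings monocytes out of the blood, went from 44.6 to 126 (1.50 ± 0.27). Cx3cr1, a chemokine receptor of patrolling monocytes, went from 50.8 to 275 (2.44 ± 0.26), and Itgb2, the shared chain of the leukocyte integrins, from 199 to 661 (1.73 ± 0.21). Chil3, a chitinase-like protein of activated macrophages, went from 38 to 221 (2.54 ± 0.28). In wild type 0 of 14 rose, though Cx3cr1 came close with 0.99.

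Lipid-associated macrophages, which gather around fat-laden cells and carry the lipid receptor TREM2, have their own set of genes. Of 20 tested 9 rose and 0 fell. Trem2 read 165 on the normal-diet and 837 on the high-fat array (2.35 ± 0.21), against 182 and 292 in wild type. Itgax, the integrin chain CD11c, went from 57.3 to 420.1 (2.87 ± 0.25), and Spp1, the matrix protein osteopontin, from 325 to 1488 (2.20 ± 0.20). In wild type Spp1 went from 625 to 435 (-0.52). Gpnmb, a glycoprotein of lipid-laden macrophages, was well above background on the knockout high-fat array alone, at 223, and was at least 9.9-fold higher there. Lgals3 (galectin-3), Cd63 (a lysosomal tetraspanin), Ms4a7, Lpl (lipoprotein lipase) and Capg rose by 1.25 to 2.48. Fabp5, a fatty acid binding protein on the same list, read 6903 and 4718 in the knockout (-0.55 ± 0.20).

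**Figure D2:**
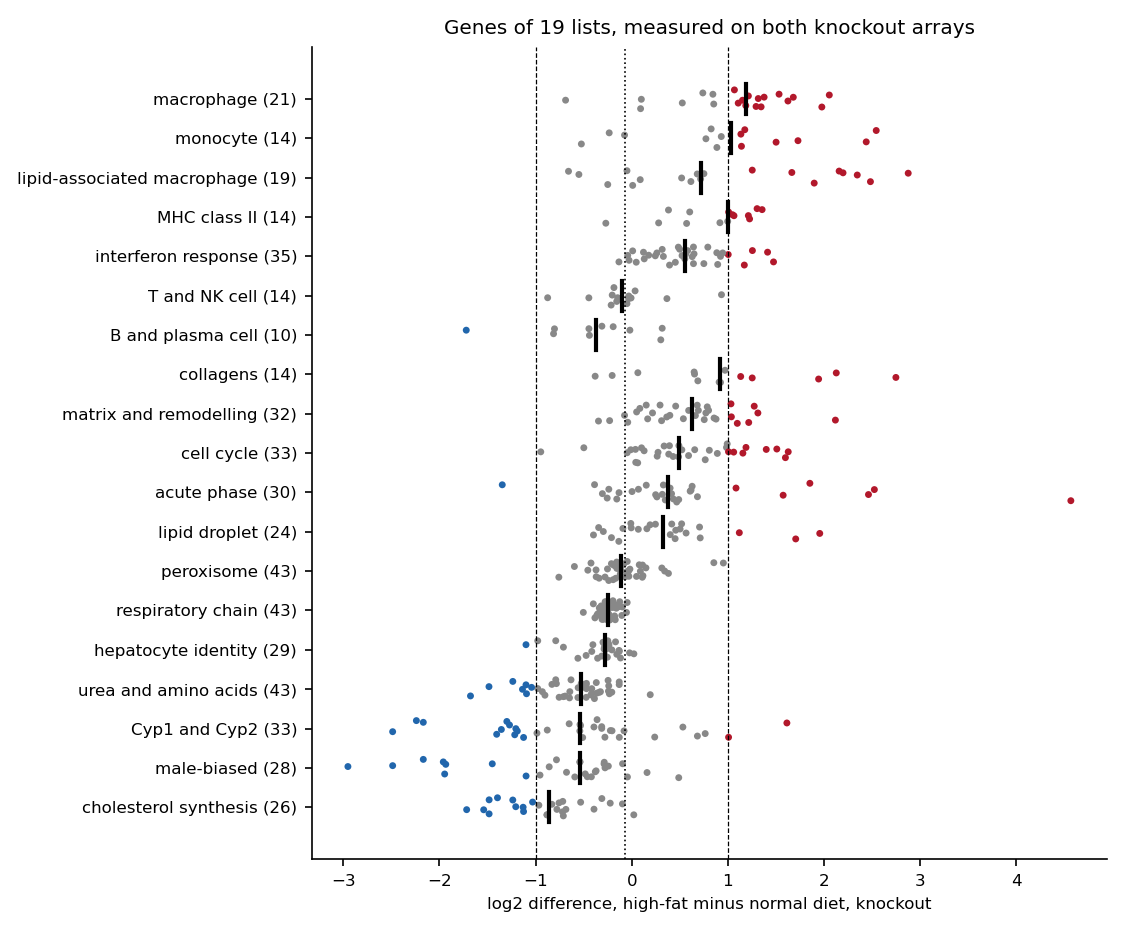
Each point is 1 gene measured on both knockout arrays, placed by its log2 difference, high-fat minus normal diet; rows are 19 gene lists with the number of measured members in brackets. Red points rose and blue points fell at least 2-fold, black bars are list medians and the dotted line is the median of all measured genes, -0.07; the macrophage row has its median at 1.19 and the cholesterol synthesis row at -0.85.

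Several signals that recruit these cells rose too. Of 22 chemokines 7 rose and 0 fell, 2 of the rises by a bound, and 4 rose with the normexp correction. Ccl2, the main ligand of CCR2, read 182 on the normal-diet and 939 on the high-fat array (2.36 ± 0.07). Its wild-type arrays read 848 and 492, so the knockout normal-diet array was the lowest of the 4. Ccl4 and Ccl3, which attract macrophages, went from 34.9 to 201 (2.53 ± 0.29) and from 26.1 to 86.8 (1.74 ± 0.35). Cxcl13, which attracts B cells, went from 98.4 to 329.8 (1.75 ± 0.22). Ccl7 and Cxcl5, dim on the normal-diet array, were at least 4.76-fold and 2.65-fold higher. Cx3cr1, Ccr2 and Ackr3 were among the receptors that rose, and Cxcr2, a neutrophil receptor, was at least 8.82-fold lower, from 168 to a level not well above background. With normexp 1 receptor rose, and the receptor median of 0.23 became -0.01.

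A kappa B site is the DNA element bound by NF-κB, which drives many chemokine genes. Promoter windows from RefSeq (GRCm38.p6, 250 bases before to 50 after a gene's start) were matched by symbol to 20 of the 28 chemokines on the array. The letters GGNNTTTCC, searched on both strands with N for any base, occurred in 6 of 23 windows (26.1%) and in 5.82% of all 32851 windows. None of the 3 changed chemokines with a window had a match. For macrophage genes the PU.1 letters GAGGAAGT occurred in 2 of 15 windows against 3.2% of all. A match is a description of these letters and not a bound site.

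Cytokines and adhesion molecules gave 4 rises and 0 falls among 22, with a median of 0.71. Il1b, interleukin-1β, went from 127 to 373 (1.56 ± 0.07). Icam1 and Vcam1, which hold leukocytes to vessel walls, went from 76.7 to 162 (1.08 ± 0.23) and from 1458 to 3046 (1.06 ± 0.20), and Selplg, the selectin ligand, rose by 1.10 ± 0.21. With median scaling 1 gene of the list rose, and 2 rose with normexp. Tnf and Il6 were read well above background on 1 array only, and their bounds did not reach 2-fold.

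Innate sensors were higher too, with 7 rises and 0 falls among 22 genes of the Toll-like receptor and inflammasome list. Tlr1 and Tlr2, which pair to sense bacterial lipopeptides, went from 37.9 to 217 (2.52 ± 0.27) and from 172 to 542 (1.65 ± 0.07). In wild type Tlr1 read 46.1 and 30.1 (-0.61), so its high-fat arrays lay on opposite sides of their normal-diet arrays in the 2 genotypes. Irak3, a brake on this pathway, went from 57.2 to 235 (2.04 ± 0.24). Tlr4, the lipopolysaccharide receptor itself, differed by 0.53 ± 0.23, and Myd88, the shared adaptor, by 0.05 ± 0.07. The list of NADPH oxidases, which make superoxide or hydrogen peroxide, gave 4 rises and 1 fall among 12, with 5 of the 11 measured below 0. The rises were in parts of the phagocyte enzyme, Rac2 (1.57 ± 0.07), Ncf4 (1.34 ± 0.20), Cybb (1.15 ± 0.22) and Cyba (1.01 ± 0.20), and the fall was Nox3, of the inner ear, at least 9.2-fold lower. The catalytic subunit Cybb read 82.6 and 183 in the knockout and 91.9 and 113 in wild type.

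MHC class II molecules present peptides to helper T cells and are made by macrophages, dendritic cells and B cells. This pathway had 8 rises and 0 falls among 15 genes, and a median of 1.00. H2-Aa, the α chain of I-A, read 481 on the normal-diet and 1231 on the high-fat array (1.36 ± 0.20), beside 583 and 502 in wild type. H2-Eb1, the β chain of I-E, went from 5260.4 to 10994 (1.06 ± 0.20), and Cd74, the invariant chain, from 3491 to 7022 (1.01 ± 0.20). The peptide loaders H2-DMa and H2-DMb1 rose by 1.23 ± 0.21 and 1.05 ± 0.20. H2-Ab1 ended just under 2-fold with 1.00 ± 0.20. Several of these values were close to 2-fold, and 5 genes rose with median scaling. In wild type 0 of 14 rose and the median was -0.11. Macrophage markers, the summed signal of which is given above, rose on the same array, and their part in the class II rise was not tested. MHC class I genes stayed within 2-fold in all 15 cases, with a median of -0.07 that became 0.14 with quantile and 0.11 with loess normalization.

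The X box is the promoter element through which CIITA and RFX drive class II genes. The promoters of 2 risen members are shown because they hold a match to its letters. Whether either match is the gene's own X box was not tested. CCNAGNNAC, on either strand, occurred in 5 of 12 windows of 11 members (41.7%) and in 17.3% of all windows, and 2 of 7 changed members with a window had it. Capitals mark the match in each stretch, from RefSeq GRCm38.p6 (chr17:34287960-34288039, minus strand and chr17:34153057-34153136, plus strand), 5′ to 3′ along the gene.
H2-Aa: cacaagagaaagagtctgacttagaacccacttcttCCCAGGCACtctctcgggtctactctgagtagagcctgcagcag
H2-DMb1: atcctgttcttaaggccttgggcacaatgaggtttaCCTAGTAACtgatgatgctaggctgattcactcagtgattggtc

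Most interferon-response genes lay above 0, while few reached 2-fold. Of 37 tested 6 rose and 0 fell, and 32 of 35 measured genes lay above 0, with a median of 0.55 beside 0.29 in wild type. Ifi27l2a, a small interferon-induced membrane protein, went from 2379 to 6611 (1.47 ± 0.20). Ifi44 went from 155 to 414 in the knockout (1.41 ± 0.21) and from 165 to 332 in wild type (1.01), so both high-fat arrays stood above both normal-diet arrays. Oas1a and Oas2, sensors of double-stranded RNA, rose by 1.25 ± 0.20 and 1.17 ± 0.21, and Gbp2, a GTPase that coats microbes, by 1.00 ± 0.20. Oas1g, a near copy of Oas1a whose probe may also read that gene, was at least 3.26-fold higher. With normexp 4 genes rose.

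The interferon-stimulated response element is bound by STAT and IRF proteins, and 3 risen genes are shown with its core. AAANNGAAA, on either strand, occurred in 23 of 37 windows of 29 members (62.2%) and in 10.6% of all windows. All 4 risen members with a window had it. Oas1a holds 2 matches that overlap. The stretches lie at chr3:151749922-151750001, minus strand, chr5:120907526-120907605, minus strand and chr3:142620568-142620647, plus strand (RefSeq GRCm38.p6), with matches in capitals; those of Ifi44 and Gbp2 are on the opposite strand.
Ifi44: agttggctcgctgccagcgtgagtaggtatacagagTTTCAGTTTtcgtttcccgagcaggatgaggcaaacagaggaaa
Oas1a: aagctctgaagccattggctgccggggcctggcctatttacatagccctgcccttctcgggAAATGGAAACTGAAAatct
Gbp2: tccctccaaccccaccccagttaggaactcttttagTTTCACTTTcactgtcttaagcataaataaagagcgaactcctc

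Genes of other blood cells went in different directions. Of 15 neutrophil genes 6 rose and 1 fell. S100a8 and S100a9, the 2 chains of calprotectin, went from 179 to 1002 (2.49 ± 0.21) and from 634 to 3468 (2.45 ± 0.20). Mpo and Elane, enzymes of neutrophil granules, differed by 0.12 ± 0.23 and -0.18 ± 0.20. T and NK cell genes had 0 rises and 0 falls among 18 (median -0.10), and the T cell receptor chains Cd3d, Cd3e and Cd3g differed by -0.15 to -0.21. Among 10 B and plasma cell genes Jchain, the joining chain of IgA and IgM, fell from 469.6 to 143 (-1.72 ± 0.21), and no gene rose. The dendritic and mast cell list, with 10 genes tested, gave 2 rises, Batf3 (1.50 ± 0.21), a factor of conventional dendritic cells, and Flt3 (1.26 ± 0.30), their growth factor receptor, and 1 fall, the mast cell gene Ms4a2, which was at least 4.62-fold lower.

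Acute phase proteins, which hepatocytes secrete in inflammation, included the largest measured rise of all. Lcn2, lipocalin-2, which withholds iron from bacteria and is made by both hepatocytes and neutrophils, read 1416 on the normal-diet and 33549 on the high-fat array, a 23.7-fold difference (4.57 ± 0.20). In wild type it went from 1828 to 7317 (2.00), so both high-fat arrays were above both normal-diet arrays. The acute phase list gave 6 rises and 1 fall among 30, with a median of 0.37. Serum amyloids Saa1 and Saa2, near-identical copies that a probe may read together, went from 18673 to 107339 (2.52 ± 0.20) and from 19983 to 110092 (2.46 ± 0.20). Orm3, an orosomucoid, went from 1575 to 5689 (1.85 ± 0.20) and Saa3 from 919 to 2736 (1.57 ± 0.20). The fibrinogen chains Fga, Fgb and Fgg differed by -0.13 to -0.24, and Crp by -0.39 ± 0.20. Hamp, which encodes the iron hormone hepcidin, fell from 98431 to 38724 (-1.35 ± 0.20).

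The iron and heme list gave 3 rises and 2 falls among 32. Hamp2, the second hepcidin gene of mice, went from 34198 to 9014 in the knockout (-1.92 ± 0.20). In wild type it read 2661 and 19342 (2.86), the opposite direction and the largest gap between the 2 diet differences among genes measured on all 4 arrays. The 2 hepcidin genes are similar in sequence, so their probes may share signal. Tfrc, the transferrin receptor, went from 366 to 883 (1.27 ± 0.07). Slc40a1, the iron exporter, and the ferritin chains Fth1 and Ftl1 differed by -0.11 to -0.22. Metallothioneins and zinc transporters had 0 rises and 0 falls among 16.

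Complement and coagulation genes moved in more than one way. Of 42 tested 8 rose and 1 fell, and 5 rose with normexp. Cfd, the serine protease adipsin, read 366 on the normal-diet and 4415 on the high-fat array (3.59 ± 0.20), and 468 and 3275 in wild type (2.81). Adipsin is made in quantity by fat cells, whose hormones Adipoq and Lep were not well above background on either knockout array. Fabp4, a gene of fat cells and macrophages described below, rose. The source of the Cfd signal was not tested. The C1q chains, C3ar1 (1.41 ± 0.28), Cfp (1.16 ± 0.20) and Plaur (1.68 ± 0.24), genes of myeloid cells, rose. Hepatocyte-made factors lay slightly below 0, for example C3 at -0.28 ± 0.06, F2 at -0.30 ± 0.20 and Plg at -0.37 ± 0.20, and C8b fell from 23555 to 9399.5 (-1.33 ± 0.20). The list's median of -0.23 became 0.04 with loess normalization. Of 19 serpins Serpina7, which carries thyroid hormone, rose by 1.31 ± 0.20, Serpina3f by 1.06 ± 0.21, and Serpinb1a, an inhibitor of neutrophil elastase, fell from 4316 to 735 (-2.55 ± 0.20) while its wild-type arrays read 1724 and 1835.

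Several collagen genes rose on the high-fat array. Of 15 tested 5 rose and 0 fell, and the median was 0.92 (0.35 in wild type). Col1a1, the main chain of type I collagen, read 175 on the normal-diet and 1177 on the high-fat array, a 6.71-fold rise (2.75 ± 0.21). In wild type it read 272 and 595 (1.13). Col1a2 and Col3a1, partners in the fibrils of scar tissue, went from 1374 to 5286 (1.94 ± 0.20) and from 789 to 3448 (2.13 ± 0.20). Col4a1 of basement membranes rose by 1.25 ± 0.06 and Col6a1 by 1.13 ± 0.20. The 3 fibrillar chains were highest on the knockout high-fat array and lowest on the knockout normal-diet array.

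Matrix and remodelling genes gave 10 rises and 0 falls among 36, and 6 rises with normexp. Timp1, which blocks matrix proteases, went from 23.1 to 372, the first value not well above background, a 16.1-fold ratio. Loxl2, which cross-links collagen, went from 313 to 776 (1.31 ± 0.21). Postn, Nid1, Adamts2, Fbn1 and Thbs1 rose by 1.03 to 1.27. Markers of the hepatic stellate cell, the main collagen maker, stayed within 2-fold in all 20 cases. Acta2, smooth muscle actin, differed by 0.61 ± 0.07, Pdgfrb by 0.61 ± 0.21, Lrat, which stores vitamin A, by 0.79 ± 0.20 and Des (desmin) by 0.05 ± 0.09. Sinusoidal endothelial genes gave 2 rises among 25, Lyve1, a hyaluronan receptor, at 1.50 ± 0.21 and Cd34 at 1.28 ± 0.21. Lyve1 rose also in wild type, from 223 to 791, whereas Cd34 went from 366 to 214 there.

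Large rises were read for Ly6d, Ubd and Sprr1a. Ly6d, a small lipid-anchored surface protein, read 511 on the normal-diet and 8876 on the high-fat array (4.12 ± 0.20), beside 142 and 461 in wild type. Ubd, a ubiquitin-like protein induced by inflammatory cytokines, went from 105 to 1304 (3.63 ± 0.22), and Sprr1a, a cornified envelope protein, from 162 to 1593 (3.30 ± 0.21). Ubd and Sprr1a were higher on both high-fat arrays than on both normal-diet arrays. Anxa2, a membrane-binding annexin, went from 4296 to 17721 (2.04 ± 0.20), and S100a11, a calcium-binding protein, from 295 to 1371 (2.22 ± 0.21). Ly6d and Plaur were the 2 rises among 15 genes of the Ly6 family, and Ubd and Sprr1a the 2 among 9 of the squamous and mucosal list. The S100 and annexin list gave 8 rises and 0 falls among 23. The bile duct and keratin list gave 4 rises and 0 falls among 20, with 10 measured genes above 0 and 7 below. The rises were Spp1, Anxa2, Anxa5 and Krt20, of which the first and the annexins are also made by other cells. The duct keratins Krt19 and Krt8 differed by 0.46 ± 0.23 and 0.53 ± 0.20, and Epcam, an epithelial adhesion protein of ducts, was not well above background on either array. Of 16 genes linked to fetal or progenitor-like liver 5 rose, among them Sox4 (1.15 ± 0.25) and Hk2 (1.47 ± 0.24), a hexokinase that adult hepatocytes make little of, and 2 rose with normexp. Afp, fetal α-fetoprotein, differed by 0.62 ± 0.07.

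Cell division genes lay mostly above 0, at low levels. Of 36 tested 9 rose and 0 fell, and 29 of 33 measured were above 0 (median 0.49). Mki67, the proliferation antigen Ki-67, read 132 on the normal-diet and 398 on the high-fat array (1.60 ± 0.21), and 143 and 245 in wild type (0.78). Prc1, Ccna2, Plk1 and Ube2c, which act in mitosis, rose by 1.19 to 1.63 and read at most 163. With normexp the count of rises was 1. Tk1 and Rrm2, which supply nucleotides for DNA, differed by -0.95 ± 0.20 and -0.50 ± 0.20. Of 23 p53 targets and arrest genes 3 rose and 0 fell. Cdkn1a, the inhibitor p21, rose from 255 to 984 (1.95 ± 0.07), close to its wild-type difference of 2.06.

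The cell cycle homology region is a short promoter element of genes that peak in mitosis, and 1 risen gene is shown. TTTGAA, on either strand, occurred in 18 of 34 windows of 32 members (52.9%) and in 17.9% of all windows, and 6 of 7 risen members with a window had it. The stretch lies at chr2:164769849-164769928, plus strand (RefSeq GRCm38.p6), and its match in capitals is on the opposite strand.
Ube2c: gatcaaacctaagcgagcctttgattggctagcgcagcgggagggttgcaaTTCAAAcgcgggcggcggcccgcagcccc

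Single genes of the stress pathways rose. Fgf21, a hormone that liver releases in fasting and protein shortage, read 169.7 on the normal-diet and 1080.1 on the high-fat array (2.67 ± 0.21), and 132 and 579.7 in wild type (2.13). Atf3, a stress-induced repressor, went from 73.3 to 351 (2.26 ± 0.25). Gdf15, a stress hormone that lowers appetite, went from 2384 to 4940.1 in the knockout (1.05 ± 0.20) and from 3791 to 2801 in wild type (-0.44). The amino acid stress and endoplasmic reticulum list gave 3 rises and 0 falls among 33, with a median of -0.04 that turned to 0.17 with loess. Hspa5, the chaperone BiP, differed by -0.05 ± 0.20, Ddit3 (CHOP) by 0.30 ± 0.21 and Atf4 by 0.02 ± 0.20. Immediate early and heat shock genes had 4 rises and 0 falls among 29, but 2 rises with normexp, and 3 rises and 1 fall with median scaling.

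**Figure D3:**
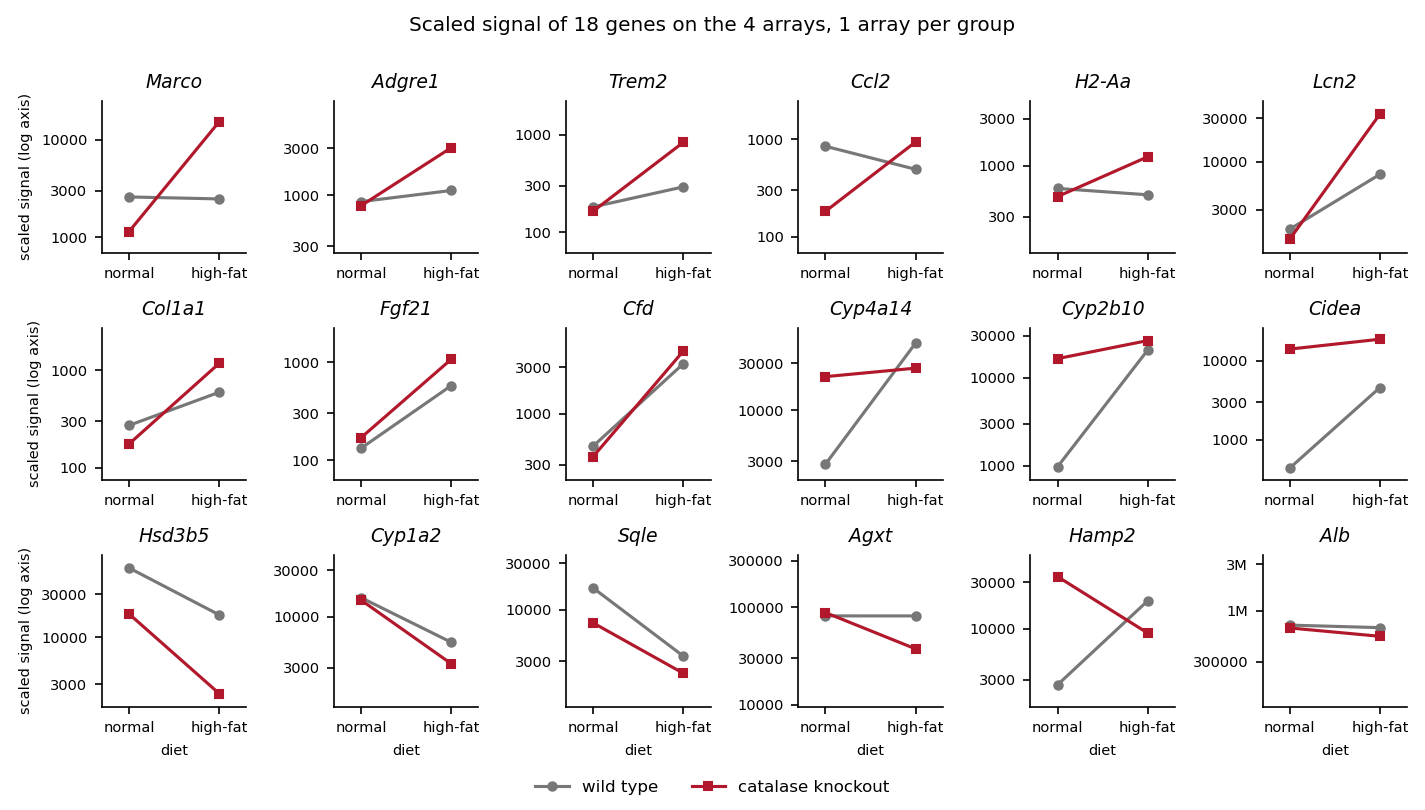
Scaled signal on a log axis for 18 genes, 1 panel each, with the normal-diet array at left and the high-fat array at right; grey circles are wild type and red squares the catalase knockout, 1 array per point. Marco goes from 1144 to 15319 in the knockout and from 2596 to 2477 in wild type, while Cyp4a14 goes from 21975 to 26852 in the knockout and from 2777 to 48544 in wild type.

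Some fat storage genes rose in the knockout from levels above those of wild type on the normal diet. Cidec, which lets lipid droplets grow by fusion, read 6732 on the knockout normal-diet and 26105 on the high-fat array (1.96 ± 0.20), beside 1085 and 10855 in wild type (3.32). Plin4, a droplet coat protein, went from 2109 to 6876 (1.71 ± 0.20), and from 426 to 4111 in wild type. Cidea, a relative of Cidec, read 14108 and 18829 in the knockout (0.42 ± 0.20) and 433 and 4580.1 in wild type (3.40). For all 3 genes the knockout normal-diet array lay above the wild-type normal-diet array, and for Cidea also above the wild-type high-fat array. Of 25 droplet genes 4 rose and 0 fell (5 and 0 in wild type), and 2 rose with normexp. Plin2, the main hepatocyte droplet coat, differed by 0.52 ± 0.20.

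Genes that bring lipid in gave 2 rises among 24, Lpl and Fabp4. Lpl, which frees fatty acids from lipoproteins, went from 268 to 1197 (2.16 ± 0.21) and was 647 and 503 in wild type. Fabp4, a fatty acid carrier of fat cells and macrophages, went from 2359.9 to 6214 (1.40 ± 0.20). Cd36, a fatty acid uptake receptor, read 2631 and 4427 in the knockout (0.75 ± 0.20) and 922 and 3323 in wild type (1.85). Among 20 apolipoproteins and partners Apoa4, which is known to follow hepatic triglyceride, rose from 5648 to 29603 (2.39 ± 0.20), near its wild-type difference of 2.31. The others stayed within 2-fold, and the list's median of -0.17 became 0.07 with loess. Fatty acid and triglyceride synthesis gave 3 rises and 2 falls among 30. Acss2 (acetate to acetyl-CoA) and Elovl3 (chain elongation) fell, from 37827 to 12461 (-1.60 ± 0.20) and from 8018 to 2083 (-1.94 ± 0.20), and Scd2 and Gpat3 rose by 1.22 ± 0.21 and 1.17 ± 0.20. Fasn and Scd1, the textbook enzymes of this pathway, differed by -0.30 ± 0.20 and 0.17 ± 0.20.

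Genes of cholesterol synthesis were lower on the high-fat array. Of 26 genes for making and taking up cholesterol 0 rose and 10 fell, 25 lay below 0 and the median was -0.85. Quantile and loess normalization gave 7 falls each, and median scaling 11. Sqle, which adds oxygen to squalene, read 7363 on the normal-diet and 2241 on the high-fat array (-1.72 ± 0.20), beside 16773 and 3359 in wild type (-2.32). Idi1, Fdps and Hmgcs1, upstream in the isoprenoid part, went from 19885 to 7117 (-1.48 ± 0.20), from 77685 to 32972 (-1.24 ± 0.20) and from 43454 to 19932 (-1.12 ± 0.20). Nsdhl, Cyp51, Msmo1 and Tm7sf2, which process lanosterol, differed by -1.21 to -1.54. For Sqle, Idi1, Hmgcs1 and Cyp51 the knockout normal-diet array stood below the wild-type normal-diet array. In wild type 15 of 26 fell, with a median of -1.06. Of 15 cholesterol efflux and LXR genes 0 rose and 0 fell.

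Sterol regulatory elements are bound by SREBP-2, which turns these genes on when sterol is scarce, and 1 fallen gene is shown with its letters. TCACNCCAC, on either strand, occurred in 1 of 22 windows of 19 members, that of Hmgcs1, and in 1.24% of all windows. The stretch lies at chr13:119690178-119690257, plus strand (RefSeq GRCm38.p6), with the match in capitals.
Hmgcs1: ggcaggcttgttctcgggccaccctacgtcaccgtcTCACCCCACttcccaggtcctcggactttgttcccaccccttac

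Several standard targets of PPARα, the receptor that fatty acids activate, stayed within 2-fold of their level on the normal diet. Cyp4a14, a fatty acid hydroxylase that is a standard readout of this receptor, read 21975 on the knockout normal-diet and 26852 on the high-fat array (0.29 ± 0.20), but 2777 and 48544 in wild type (4.13). Cyp4a10 and Cyp4a31, related enzymes whose probes may share signal, differed by -0.07 ± 0.20 and -0.02 ± 0.20 in the knockout and by 1.70 and 1.69 in wild type. The knockout normal-diet array was thus above the wild-type normal-diet array for these 3 genes. Of 23 microsomal and cytosolic targets 2 rose and 3 fell (median 0.03, or -0.07 with median scaling), beside 8 and 2 in wild type (median 0.57). Vnn1, a pantetheinase, was a rise in the knockout, from 4173 to 8589 (1.04 ± 0.20). Of 28 mitochondrial fatty acid oxidation genes Pdk4, which spares glucose, rose by 1.16 ± 0.21 and Acot2, a thioesterase, by 1.13 ± 0.22, and neither stayed at 2-fold with normexp. Cpt1a, the gate to mitochondrial oxidation, differed by 0.37 ± 0.06.

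Peroxisomes, where catalase belongs, showed no 2-fold change in any of 43 genes for their oxidation and assembly. Ehhadh, an enzyme of peroxisomal fatty acid oxidation, differed by -0.28 ± 0.20 and Pex11a, which divides peroxisomes, by 0.38 ± 0.06. The list's median was -0.11, and 0.04 with loess. Among 20 oxidases and dismutases that produce hydrogen peroxide 0 rose and 0 fell, with Uox (urate oxidase) at -0.26 ± 0.20 and Maoa (monoamine oxidase A) at -0.94 ± 0.21. The list of enzymes that remove peroxide and superoxide or repair oxidised thiols, which holds Cat itself and shares dismutases with the list before, gave 1 rise and 1 fall among 28, Gpx3 of plasma, from 186 to 392 (1.07 ± 0.21), and Gpx6, from 127 to 54.9 (-1.21 ± 0.24). Neither stayed at 2-fold with normexp. Gpx1, Prdx1 and Prdx3, abundant peroxidases of hepatocytes, differed by -0.13 to 0.07.

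NRF2 is the transcription factor that oxidants activate by way of its sensor KEAP1, and its pathway had 1 rise and 0 falls among 32 genes. That was Cbr3, a carbonyl reductase, which read 503 on the normal-diet and 3162 on the high-fat array (2.65 ± 0.20) and 296 and 377 in wild type (0.35). Nqo1, its best known target, differed by 0.65 ± 0.20, Srxn1 by 0.79 ± 0.20, Gclc by -0.03 ± 0.20 and Hmox1 by -0.25 ± 0.21. The list's median was -0.03, and 0.16 with loess. Glutathione S-transferases gave 0 rises and 1 fall among 21, Gstt3, from 38392 to 17577 (-1.13 ± 0.20).

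Drug-metabolising P450 genes held many falls. Of 33 Cyp1 and Cyp2 genes 2 rose and 11 fell (median -0.53, and -0.31 with loess), and 7 fell with quantile normalization. Cyp1a2, which clears caffeine, read 14800.5 on the normal-diet and 3296 on the high-fat array (-2.17 ± 0.20), beside 15682 and 5468 in wild type (-1.52). Cyp2c55 went from 647 to 116 (-2.49 ± 0.21) and Cyp2g1 from 604 to 128 (-2.24 ± 0.21). The other Cyp2c genes that fell, Cyp2c23, Cyp2c29, Cyp2c37, Cyp2c38, Cyp2c39, Cyp2c50 and Cyp2c54, did so with differences of -1.12 to -1.40, but they are close in sequence and their probes may not be independent. In wild type the same 7 genes differed by -0.38 to -0.62. Cyp2b13 and Cyp2b9 rose by 1.61 ± 0.20 and 1.01 ± 0.20, the latter just past 2-fold. Cyp2b10, the standard target of the drug receptor CAR, read 16517 and 26522 in the knockout (0.68 ± 0.20) and 969.7 and 20721 in wild type (4.42).

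Among 22 Cyp3 and other P450 genes 5 fell and 0 rose, and 3 fell with quantile normalization. Cyp3a11, the main mouse counterpart of human CYP3A4, went from 170190.3 to 58433 (-1.54 ± 0.20), near its wild-type difference of -1.68. Cyp3a16 and Cyp3a41b, near copies of each other, fell, with differences of -1.95 ± 0.20 and -1.97 ± 0.20. The carboxylesterase and alcohol dehydrogenase list gave 1 rise and 3 falls among 31. Ces2a, a carboxylesterase, went from 81312 to 24034 (-1.76 ± 0.20), and Adh6a, an alcohol dehydrogenase, was at least 13-fold lower. Of 23 conjugating enzymes 0 rose and 2 fell: the sulfotransferases Sult2a7 and Sult2a8 fell, with differences of -1.27 ± 0.20 and -1.22 ± 0.20, and differed by 0.02 and -0.17 in wild type. Among 33 transporters 3 rose and 6 fell. Slco1a1, which takes up bile acids and steroids, went from 4473 to 799 (-2.49 ± 0.20), Slc13a2, a citrate and succinate carrier, from 251 to 33.7 (-2.90 ± 0.29), and Slc22a7, an organic anion carrier, from 7724 to 3200.3 (-1.27 ± 0.20). Slc13a5, the liver citrate carrier, rose from 69.1 to 224 (1.69 ± 0.24).

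Male mice express some liver genes above females under the pulsed release of growth hormone, and several of these fell. Male-biased genes numbered 28, of which 8 fell and 0 rose (median -0.54, and -0.32 with loess). In wild type 10 of 29 fell and 0 rose, with a median of -0.80. Hsd3b5, a steroid dehydrogenase of male liver, had the largest fall of all genes measured on both arrays and read 18162 on the normal-diet and 2349 on the high-fat array (-2.95 ± 0.20). Its wild-type arrays read 59062 and 17696 (-1.74), so the knockout normal-diet array was near the wild-type high-fat array. Cyp4a12a and Cyp4a12b, near copies that make the vasoactive lipid 20-HETE in males, fell, with differences of -1.96 ± 0.20 and -1.93 ± 0.20, and by nearly the same in wild type (-1.98 and -1.96). Female-biased genes gave 4 rises and 3 falls among 26 in the knockout and 16 and 3 among 25 in wild type, and with normexp 2 rose in the knockout. Several, such as Cyp2b9 with 907 on the knockout and 22.1 on the wild-type normal-diet array, were higher in the knockout on the normal diet. Igfbp2, which binds insulin-like growth factors, fell from 34329 to 15439.7 (-1.15 ± 0.20), and Igf1 and Ghr differed by -0.46 ± 0.20 and -0.44 ± 0.20. The growth hormone and IGF list held 1 rise beside it, Igfbp6 (1.09 ± 0.21), among 22 genes. Of 24 hormones that liver secretes 4 rose and 0 fell, while 2 rose with median scaling and 3 with normexp.

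Amino acid breakdown and the urea cycle lay below 0 almost throughout. Of 43 genes 7 fell and 0 rose, 42 were below 0, and the median was -0.52 in the knockout and 0.02 in wild type. Agxt, which turns glyoxylate into glycine in peroxisomes, read 88422 on the normal-diet and 37534 on the high-fat array (-1.24 ± 0.20), beside 81718 and 81662 in wild type. Cth, the last step to cysteine, went from 43649 to 15606 (-1.48 ± 0.20), Etnppl, which breaks down phosphoethanolamine, from 18791 to 5879.6 (-1.68 ± 0.20), and Cps1, the first enzyme of the urea cycle, from 32677 to 15254 (-1.10 ± 0.20). Oat, which handles ornithine, fell from 76919.9 to 37383 (-1.04 ± 0.20) but went from 58089.6 to 76801 in wild type. These are bright genes: with loess the median was -0.31 and with quantile normalization 3 genes fell, while median scaling gave 10.

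Falls occurred among genes of both ends of the liver lobule. Of 24 genes expressed near the central vein 6 fell and 0 rose (median -0.62), and of 24 expressed near the portal vein 5 fell and 1, Apoa4, rose (median -0.49). With quantile normalization 3 and 3 fell, and the loess medians were -0.48 and -0.28. Glul, glutamine synthetase of the innermost pericentral cells, differed by -0.22 ± 0.20, and Avpr1a, a vasopressin receptor, fell from 370.0 to 150.3 (-1.30 ± 0.21). General hepatocyte genes had 1 fall, Cps1, among 29, and their median of -0.28 became 0.02 with loess. The respiratory chain list had 0 rises and 0 falls, and all 43 genes were below 0 with a median of -0.24, which loess brought to -0.05.

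Bile acid synthesis had 1 fall among 20, Cyp7b1 of the alternative pathway, from 37840.2 to 17675 (-1.10 ± 0.20). Cyp7a1, the rate-limiting enzyme of bile acid synthesis, differed by -0.85 ± 0.20, and Cyp8b1, which sets the bile acid type, by -0.73 ± 0.20. Of 34 glucose and insulin genes Pdk4 rose and Ppp1r3g, a glycogen-targeting subunit, fell from 2848 to 969 (-1.55 ± 0.20). Nr1d1, the clock repressor REV-ERBα, was the only fall among 21 clock genes and 42 nuclear receptors, from 1522 to 586 (-1.38 ± 0.20). Arntl and Clock, the core activators of the clock, differed by 0.03 ± 0.21 and 0.00 ± 0.20. Lysosome genes had 3 rises among 33, Cd63, Laptm5 and Ctss, each also on a macrophage list above.

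Lipid mediator genes, 19 in number, added 3 rises, Smpd3, a sphingomyelinase, from 189 to 844 (2.16 ± 0.21), Pla2g7, which inactivates platelet-activating factor, from 348 to 932 (1.42 ± 0.21), and Pla2g4a, which frees arachidonic acid (1.13 ± 0.22). Ptgds, a prostaglandin D synthase, fell from 671 to 164 (-2.03 ± 0.21).

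Several of the largest changes fell outside every list. Rad51b, a DNA repair protein, read 135 on the normal-diet and 1587 on the high-fat array (3.56 ± 0.21). Adgrv1, an adhesion receptor, went from 772 to 4645 (2.59 ± 0.20), close to its wild-type difference of 2.62. Mthfd1l, a mitochondrial folate enzyme, went from 92.9 to 583 (2.65 ± 0.22), and a further probe of it gave 2.72. Myoc, myocilin, went from 39 to 229 in the knockout (2.55 ± 0.27) and from 35.7 to 30.9 in wild type. Cgref1 rose from 452 to 3079 (2.77 ± 0.20) and Ifi27l2b from 2069 to 11938 (2.53 ± 0.20). Prcd rose by 2.50 ± 0.29, but a further probe of it differed by 0.67.

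On the falling side Ins1, insulin, read 147 on the normal-diet and 25.1 on the high-fat array (-2.55 ± 0.30). The list of tissues that can be carried over with liver (fat, pancreas, muscle, blood) had 2 rises among 10, Cfd and the pancreatic enzyme Cela1, from 64.3 to 218 (1.76 ± 0.23), while the pancreatic enzymes Pnlip and Try4 were not well above background on either knockout array. Serpinb1c, a relative of Serpinb1a, differed by -2.39 ± 0.34, and Clec2h, a C-type lectin, by -2.34 ± 0.21. Meg3, an imprinted non-coding RNA, went from 213 to 51.4 (-2.05 ± 0.24), beside a difference of -2.20 in wild type. Lrtm1 went from 3309.5 to 900.2 (-1.88 ± 0.20), Grm8, a glutamate receptor, from 257 to 72.5 (-1.83 ± 0.22), and Nek2, a mitotic kinase, from 291 to 84.5 (-1.78 ± 0.22). Cd200r1, an inhibitory receptor of myeloid cells, fell from 234 to 66.4 (-1.81 ± 0.22), and its 2 wild-type arrays read 29.1 and 31.6. Reck, an inhibitor of matrix proteases, fell by 2.13 ± 0.27, while a further probe of it differed by -0.27.

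Leaving out odorant and pheromone receptor genes, and Timp1, Gpnmb and Adh6a, which are described above, the largest bounds were upward for Ttc39a (22.2-fold), Usp49 (at least 12.6-fold), Npas3 (at least 10.6-fold), Mesp1 (at least 9.38-fold), Sdcbp2 (at least 9.31-fold), Xrra1 (at least 8.86-fold) and Kcnma1 (at least 7.98-fold). Downward they were Rragd (at least 15.4-fold), Cend1 (at least 14.6-fold), Map2 (at least 14-fold), A4gnt (at least 12.7-fold), Kcne1 (at least 10.8-fold), Kcnip4 (at least 10.7-fold), Cnbd2 (at least 9.99-fold) and Nox3 (at least 9.2-fold). Usp49, Npas3, Mesp1 and Xrra1 were read well above background on the knockout high-fat array alone, and Cend1, Map2 and Kcnip4 on the knockout normal-diet array alone. Such values rest on 1 spot.

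Read against wild type, the diet moved overlapping but unequal sets. In wild type 261 genes rose (1.78%) and 338 fell (2.31%) of 14636 tested. Both genotypes shared 65 rises, 10.3% of those in the knockout and 24.9% of those in wild type, and 55 falls, 22.4% and 16.3%. Among the 453 knockout rises measured on all 4 arrays, 355 were above 0 in wild type too, but with a median of 0.26 against 1.28 in the knockout. For 146 falls 117 were below 0 in wild type, with medians of -0.72 and -1.26. Of all genes measured on the 4 arrays, 45.6% were above 0 in wild type, the background for both counts. Across 13551 genes the 2 differences had a Pearson correlation of 0.36, a description over genes of 4 arrays on 1 slide that share no array between the 2 differences.

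Among genes measured on all 4 arrays the knockout difference was furthest below wild type for Hamp2, Bst1, Cyp4a14, Cyp2b10 and Syt10. Bst1, an ectoenzyme of stromal and myeloid cells, read 108 and 34 in the knockout (-1.67 ± 0.27) and 32.5 and 268 in wild type (3.05). Syt10, a synaptotagmin, read 54.5 and 137 in the knockout (1.33 ± 0.24) and 159.5 and 3889 in wild type (4.61). Dnm1, a dynamin, Cidea, Serpinb1a, Slc2a4, the glucose carrier GLUT4, and Krt23 followed. The knockout was furthest above for Xlr4a, Marco, Syt9, Nrg1, a ligand of ERBB receptors, Ccl2 and Tlr1, followed by Myoc, Cib3, Asb2 and Xlr3b. Xlr4a read 33.3 and 133 in the knockout (2.00 ± 0.29) and 193 and 38.5 in wild type (-2.32), and it belongs to a family of near copies on the X chromosome. For Syt9 and Cib3 the knockout difference was small (0.44 ± 0.35 and 0.41 ± 0.21) and the wild-type fall made the gap (-3.14 and -2.33).

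**Figure D4:**
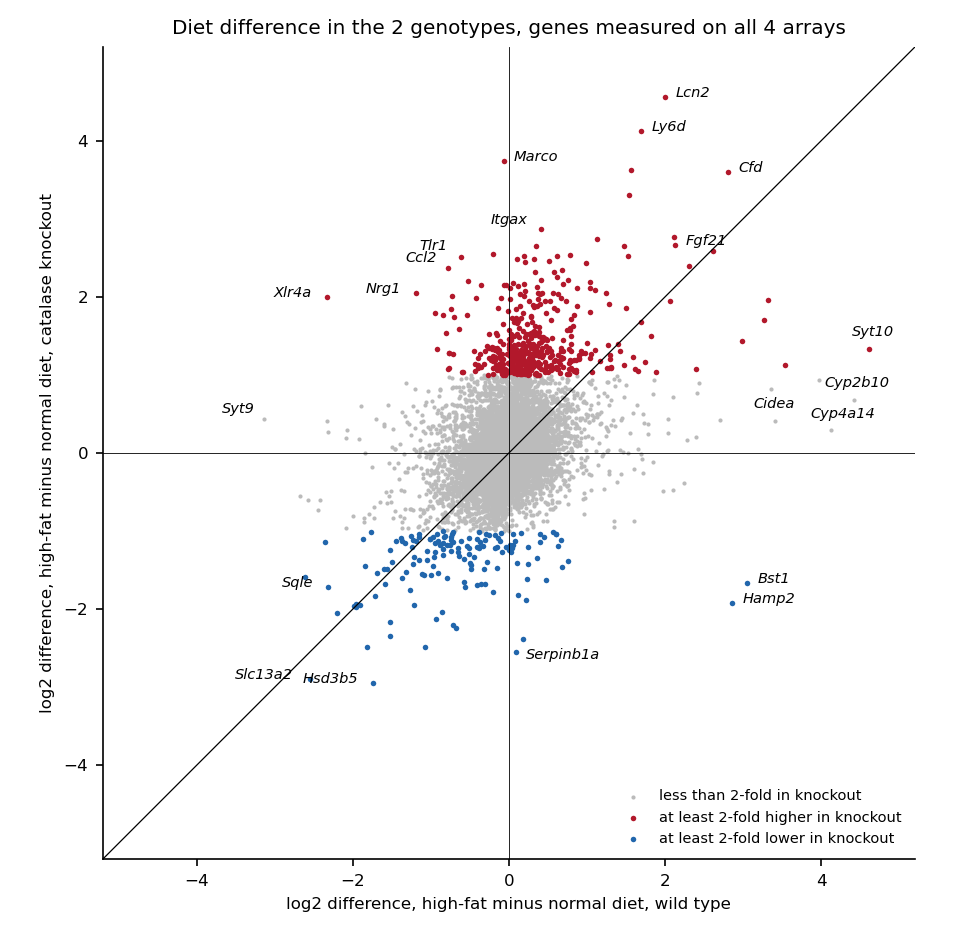
Each point is 1 of 13551 genes measured on all 4 arrays, with the log2 diet difference in wild type on the horizontal and in the catalase knockout on the vertical axis; the diagonal marks equal differences. Red genes rose and blue genes fell at least 2-fold in the knockout; Marco sits at 3.74 in the knockout and -0.07 in wild type, and Cyp2b10 at 0.68 and 4.42.

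How far each list depends on the scaling is shown by its median under other settings. The macrophage, monocyte, class II, collagen and cholesterol lists kept their side of 0 under each alternative run for lists. Their medians ranged from 1.08 to 1.24 for macrophage genes and from -0.96 to -0.77 for cholesterol synthesis. Peroxisome, hepatocyte identity, apolipoprotein, lipogenesis, NRF2 and peroxide removal medians, all below 0 here, were above it with loess. In lists with at most 3 rises and 3 falls, these counts moved by at most 2 genes under the alternatives run for lists.

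Some single calls depended on the setting. Of 218 named genes that rose or fell, 65 came under 2-fold in at least 1 alternative. With normexp these were Ackr3, Acot2, Asb2, Bst1, C3ar1, Calhm1, Ccl3, Ccl7, Ccna2, Ccr2, Cxcl5, Cybb, Cyp2b9, Fbn1, Flt3, Gbp2, Gcnt1, Gpx3, Gpx6, H2-DMa, H2-DMb1, Hk2, Icam1, Igfbp6, Islr2, Krt20, Mboat2, Oas1g, Pdk4, Pla2g4a, Plaur, Plk1, Prc1, Selplg, Serpina3f, Sox4, Syt10, Tex13c1, Thbs1, Theg, Timd4, Ube2c and Xlr4a. With median scaling they were Adamts2, C1qc, Cd74, Cyba, Cyp2b9, Fbn1, Gbp2, Gdf15, Gpx3, H2-DMb1, H2-Eb1, Icam1, Igfbp6, Nid1, Selplg, Serpina3f, Timd4, Vcam1 and Vnn1. With both quantile and loess normalization they were Cps1, Cyp2c23, Cyp2c29, Cyp2c37, Cyp2c50, Cyp7b1, Fbn1, Gstt3, Hmgcs1, Igfbp2, Oat and Sult2a8, with quantile alone Gbp2 and Icam1. With the mean over a gene's probes they were Cyp2c38, Nid1, Selplg, Serpina3f, Sox4 and Tfrc. None of these 218 turned direction, but a bound cannot do so under another scaling. Over all measured genes the median moved by -0.11 with median scaling and by 0.05 with loess. Such shifts are small beside a 2-fold change, so the absence of turns says little about the calls.

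**Figure D5:**
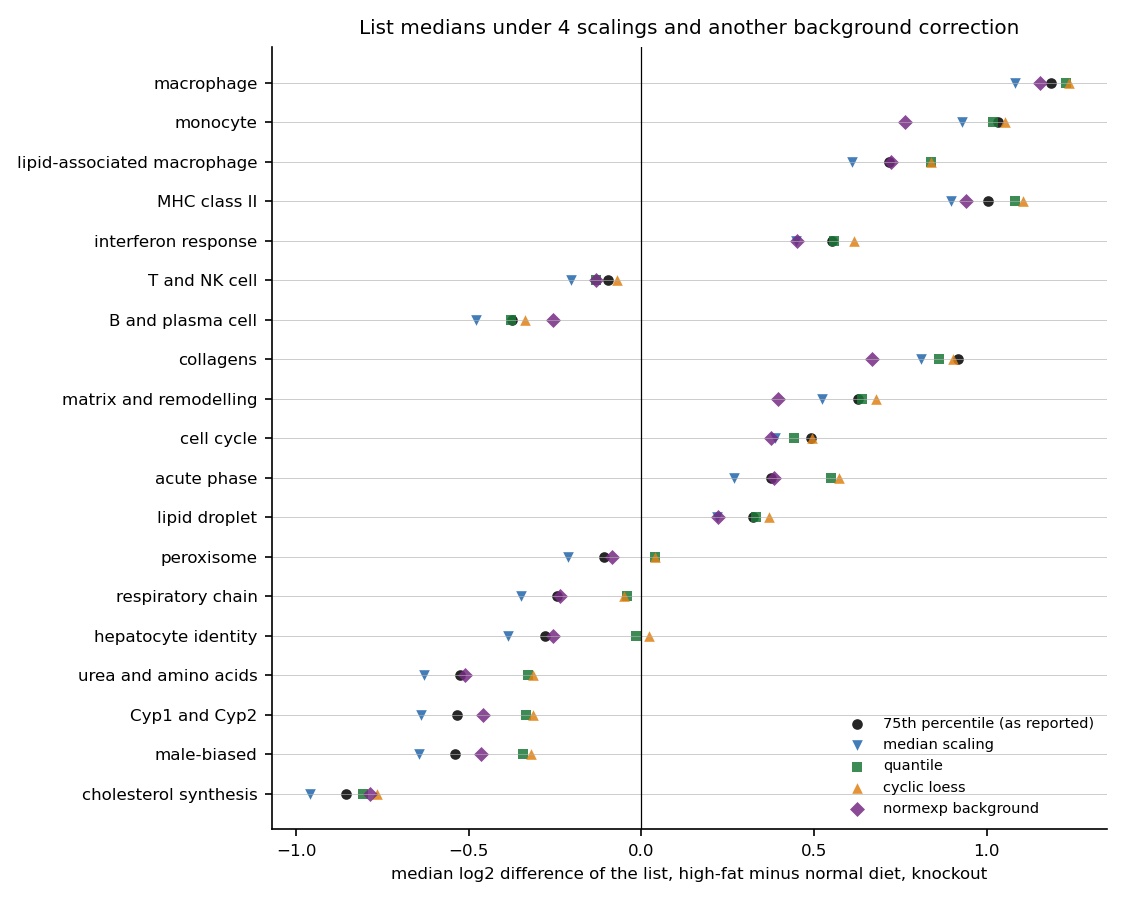
Median log2 difference, high-fat minus normal diet in the knockout, of 19 gene lists under the scaling used here (black circles), 3 other scalings and the normexp background correction. The cholesterol synthesis median stays between -0.96 and -0.77 over these settings, while that of hepatocyte identity moves from -0.28 to 0.02 with cyclic loess.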

How the data were processed

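Liver RNA of 4 groups was read on 1-colour Agilent mouse arrays, 1 array per group, all on 1 slide in 1 scan. Per the file headers, the deposited intensity values come from Feature Extraction 11.5.1.1; the submitters name GeneSpring GX 7.3 for extraction, and how the authors scaled their comparison is not given in the sources used here. Values in the deposited table, also intensity on a linear scale and uncentred, lay within 1% of the scanner signal for at least 99.6% of probes (column medians 79.87, 75.87, 72.38 and 89.16 for wild type normal, wild type high-fat, knockout normal and knockout high-fat diet); direction does not apply to 1 colour.

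Control spots and spots with outlier flags were left out (a flagged spot was kept where all spots of its probe were flagged), log2 processed signals were averaged per probe and each array's 75th percentile was subtracted. Accessions named 27508 of 39429 probes through RefSeq GRCm38.p6 (names only), giving 20886 genes; the other 11921 probes have no name here, and 158 of them rose and 162 fell. A gene with several probes (5512 genes) is read by its brightest. Where 1 of the 2 arrays was not well above background, its signal was raised to the lowest one well above background on that array, and the size is written "at least". For Timp1 and Ttc39a the dim signal was itself higher and was kept. Since a dim probe can lie above that lowest signal, "at least" holds against that signal only and is not a proven minimum. Of 107 changed genes with a further measured probe, 101 had one of the same sign and 64 one at 2-fold.

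The 68 gene lists, the members and the rule for named genes were chosen with earlier results of these data known, and lists share genes. That rule takes Cat, the 25 largest stable changes and 10 largest bounds each way, list members whether changed or not, and the 10 widest gaps to wild type each way; clone and predicted names were left out, and a few list members are not reported here by name. Alternatives were median, quantile and cyclic loess scaling, normexp (offset 50), the mean over probes, no filter on dim probes, measured genes only, flags ignored and the deposited table. Normexp used the median spot signal, since the mean spot signal was not in the files used. The script that applies the 2-fold rule was tested on simulated data. Tools were Python 3.11.15, numpy 2.4.6, pandas 2.3.3, matplotlib 3.10.9, R 4.3.3 and limma 3.58.1. The number of arrays limits the precision.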

Additional observations from a re-analysis of the deposited data

Results flagged for a closer look

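A total of 17 genes were called at 2-fold in both genotypes but in opposite directions on the high-fat diet. The difference between the genotypes was not tested, since each rests on 1 array per group. Values are log2 sizes, first in the knockout and then in wild type.

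For 4 of the 17, Hamp2, Bst1, Xlr4a and Nrg1, the probe was well above background on all 4 arrays. Hamp2 had -1.92 and 2.86, Bst1 -1.67 and 3.05, Xlr4a 2.00 and -2.32, and Nrg1 2.05 and -1.19. Gcnt1 was measured in the knockout (1.44) and a bound in wild type (-1.03).

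The other 12 were bounds in both genotypes, read well above background on 1 array per genotype. Lower in the knockout were A4gnt (-3.67 and 2.33), Adamts18 (-2.97 and 1.03), Brsk2 (-2.41 and 2.29), Kcne1 (-3.43 and 3.32) and Mboat2 (-1.48 and 1.77). Higher in the knockout were Calhm1 (1.65 and -2.74), Got1l1 (2.16 and -2.32), Islr2 (1.32 and -1.68), Krt20 (1.24 and -3.32), Tex13c1 (2.11 and -2.87), Theg (2.16 and -1.13) and Xlr4b (2.75 and -2.79).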

How the results depend on the processing

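The count of 629 rises stayed within 1.5 times under 7 of 9 alternatives (478 to 630), but was 271 with normexp and 1170 with no filter on dim probes; the cause was not tested for normexp, and the second count adds genes not well above background. The count of 245 falls was 228 to 323 under 6 alternatives, 138 with normexp, 625 with no filter and 153 with genes measured on both arrays only, which leaves out the bounds. Of the rises, 268 were shared with normexp and 604 with loess. The medians of the 68 gene lists moved by less than the median scanner error of a difference in 438 of 476 recomputed values, and 38 moved further. The differences of the 283 named genes moved by less than their own scanner error in 2269 of 2512 recomputed values and by more in 243. Both tallies include settings that could hardly move a value. Ignored flags and the deposited table read nearly the same signals. For a measured named gene, the settings with no filter and with measured genes only keep its value. No named gene that rose or fell changed direction under an alternative that gave it a value, but a bound cannot do so under another scaling. For measured genes the median shifts between scalings were small beside a 2-fold change, so a turn was unlikely there too. No paired analysis was possible because each group has 1 array. With 1 array a group the spread between mice is unknown, and signal over background limits the dim genes, which have only a bound where 1 array did not measure them.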
